A study of Mus musculus with 24 samples.

Results

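The genes described here are 10 genes of lipid-associated and recruited macrophages: Trem2, Gpnmb, Cd9, Lgals3, Itgax, Cd68, Tyrobp, Lyz2, Mmp12 and Ccr2. They were chosen by symbol, and each symbol matched 1 of the 55421 gene entries of the deposited tables. All 10 passed the filter on low counts, which left 13847 genes for the tests. RNA came from hepatocytes of 24 C57BL/6J mice, 1 library per animal. The ND+veh animals (n = 8) stayed on normal diet with vehicle. The HFD+veh animals (n = 7) were moved at 18 months of age to a high-fat diet, with 60% of calories from fat, and kept the vehicle. The HFD+eRapa animals (n = 9) received the same high-fat diet with encapsulated rapamycin at 42 ppm. The diets ran for 9 weeks, and vehicle or rapamycin was given from 4 months of age, so the drug preceded the fat by more than a year. There was no group with rapamycin on normal diet, so an effect of the drug without the high-fat diet could not be measured. Reads of macrophage genes here come from a hepatocyte preparation made by collagenase perfusion, low-speed spins and a density gradient, not from sorted macrophages. In such bulk RNA, fewer cells of a type and less RNA per cell cannot be told apart.

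Lipid-associated macrophages are cells that take up lipid and dying cells in fatty tissue. Their surface receptor TREM2 binds lipids and signals through the adaptor TYROBP, and they express lysosomal, galectin and matrix-degrading genes. In the fatty liver, cells of this kind arise in part from monocytes that are drawn from the blood through the chemokine receptor CCR2, next to the resident Kupffer cells.

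The promoters were searched for 4 short motifs. In the RefSeq promoters of GRCm38.p6 (250 bases before to 50 after the RefSeq start), 9 of the 10 genes had an entry, and the first entry of each was searched on both strands. The letters TGANTCA, which read the same on both strands, occurred in 4 of these 9 promoters, against 7.81% of all 32851 promoters. Both counts allow any base at N. With C or G at N these letters are the core of AP-1 sites, and the Trem2 match has A there. The matches with their flanks are shown because this was the only motif searched that more than 1 of these genes carried in the first entry, with the motif in capitals.
Trem2: tctccctcctTGAATCAcagcgcctac
Gpnmb: caggggcaagTGACTCAtgagcacgag
Itgax: ccacctcctcTGAGTCAcgctgacaac
Cd68, distal: aagttccgtgTGAGTCAgctgcctcat
Cd68, proximal: ctgaggtgtcTGAGTCAggtttggggt
The Trem2 stretch lies at chr17:48346382-48346408 on the plus strand, and its motif begins 9 bases before the RefSeq start. The Gpnmb stretch (chr6:49036516-49036542, plus strand) is the only one past its RefSeq start, by 8 bases, and still lies before the gene start in the annotation used for gene positions below. The Itgax motif begins 56 bases before the start (chr7:128129484-128129510, plus strand). The Cd68 motifs begin 149 bases (chr11:69666303-69666329, minus strand) and 24 bases (chr11:69666178-69666204) before the start. The PU.1 motif GAGGAAGT was found in 1 of the 9 promoters, that of Mmp12, against 3.20% of all. CATGTG was found in 1, that of Cd9, against 14.2%, and CACGTG in 0, against 7.15%. A second entry of Mmp12 held TGANTCA 44 bases and CATGTG 83 bases before its own start. These matches describe the letters of the windows and do not show that a factor was bound.

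Cd68 was the only gene of the 9 with more than 1 match to TGANTCA in its first promoter. The 250 bases before its start (chr11:69666171-69666420, minus strand) are given below in transcript direction, with both matches in capitals.
Cd68 upstream: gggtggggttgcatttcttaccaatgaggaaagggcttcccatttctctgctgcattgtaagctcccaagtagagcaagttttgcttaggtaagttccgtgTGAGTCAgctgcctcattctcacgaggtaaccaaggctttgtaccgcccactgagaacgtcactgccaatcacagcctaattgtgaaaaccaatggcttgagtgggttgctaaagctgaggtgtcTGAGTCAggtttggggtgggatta

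Library totals ran from 17.7 to 25.9 M counts. The summed level of 7 hepatocyte markers (among them Alb and Apoa1) was 74399 to 147356 counts per M (CPM) in ND+veh, 112967 to 139832 CPM in HFD+veh and 53265 to 121508 CPM in HFD+eRapa, and each marker was detected in every group. The 10 macrophage genes together took 0.00446 to 0.256% of the counts of an HFD+veh library, 0.00466 to 0.0413% in ND+veh and 0.00168 to 0.0228% in HFD+eRapa.

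Markers of macrophages and of other leukocytes also differed widely between animals. Summed over 8 pan-macrophage markers, the level was 109 to 764 CPM (median 173) in ND+veh, 297 to 4231 CPM (median 1711) in HFD+veh and 101 to 578 CPM (median 239) in HFD+eRapa. The 7 Kupffer cell markers summed to 27.5 to 702 CPM (median 148), 92.8 to 3143 CPM (median 1492) and 8.36 to 606 CPM (median 129) in the same order of groups. The 5 pan-leukocyte markers summed to 73.3 to 252 CPM, 89.6 to 1764 CPM and 73.0 to 190 CPM. No gene of these 3 lists was at 0 in every library of a group. Neutrophil markers summed to 0.113 to 6.51 CPM in ND+veh, 1.51 to 51.3 CPM in HFD+veh and 0.0561 to 11.7 CPM in HFD+eRapa. Their defining marker Ly6g had no count in any library of ND+veh or HFD+eRapa. Its mean over the 24 libraries was 0.00758 CPM, so it was nearly absent in HFD+veh too and the sums rest on the other listed genes. In HFD+veh the animals with replicate numbers 3, 4, 5 and 6 carried most of the macrophage and leukocyte signal, and animals 1 and 2 had levels like those of ND+veh. Animal 6 of HFD+veh had the highest sum of each of the pan-macrophage, Kupffer cell and pan-leukocyte lists. The part of these cells in the results below was not tested, beyond the fits with marker covariates.

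**Figure D1:**
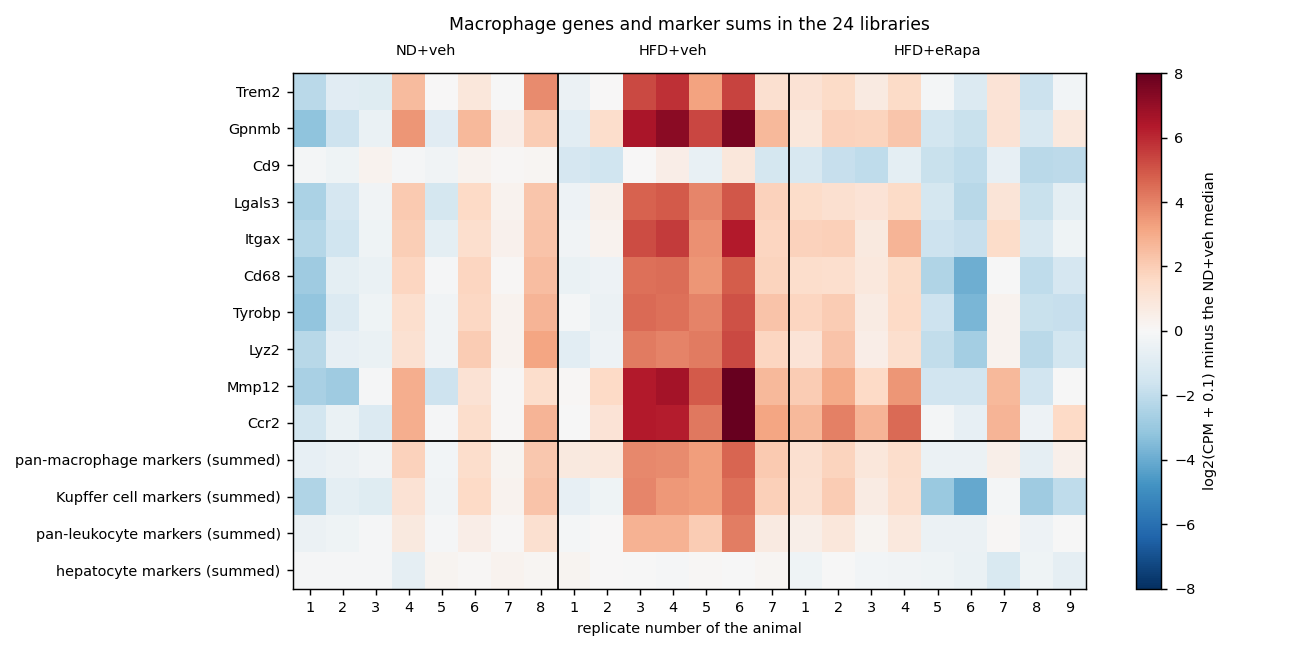
Heat map of the 10 macrophage genes (upper rows) and of 4 summed marker lists (lower rows) in the 24 libraries, as log2(CPM + 0.1) minus the ND+veh median of the row. Animals 3, 4, 5 and 6 hold the 4 highest HFD+veh values of each of the 10 genes, and Cd9 is lower in every HFD+eRapa animal than in any ND+veh animal.

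Trem2 (chr17:48346401-48354147, plus strand) and its adaptor Tyrobp (chr7:30413760-30417585, plus strand) encode a receptor complex of lipid-associated macrophages. Trem2 ran from 0.0564 to 9.58 CPM in ND+veh (median 0.602), from 0.413 to 40.8 CPM in HFD+veh (median 6.44) and from 0.111 to 1.94 CPM in HFD+eRapa (median 1.07). Animals 3, 4 and 6 of HFD+veh stood above every ND+veh animal, and the groups overlapped below them. Trem2 was 6.82-fold higher on high-fat than on normal diet (log2 fold change 2.77 ± 0.93 SE, edgeR adjusted p = 0.0322), but this call was lost without any 1 of 9 libraries, 3 of them of HFD+veh (replicates 3, 4 and 6) and 6 of ND+veh (replicates 1, 2, 3, 5, 6 and 7), with adjusted p up to 0.0857. The log2 fold change ran from 2.29 (without HFD+veh replicate 4) to 3.93 (without ND+veh replicate 8). In HFD+eRapa it fell by 3.68 ± 0.93 on the log2 scale against HFD+veh (edgeR adjusted p = 0.00533). Against ND+veh its log2 difference in HFD+eRapa was -0.91 ± 0.87 (adjusted p = 0.565).

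Tyrobp, the signalling adaptor of TREM2 and of other myeloid receptors, was at 0.282 to 22.2 CPM in ND+veh (median 3.36), 2.37 to 116 CPM in HFD+veh (median 52.2) and 0.168 to 14.0 CPM in HFD+eRapa (median 4.06). The highest ND+veh animal, number 8, was above 3 of the 7 HFD+veh animals, so these groups overlapped, and 4 of the 9 HFD+eRapa animals were below the lowest HFD+veh animal. Tyrobp was 6.99-fold higher on high-fat than on normal diet (2.81 ± 0.88, edgeR adjusted p = 0.0240), a call lost without replicate 3 or 6 of HFD+veh (adjusted p up to 0.0709), and the log2 fold change was 3.46 without ND+veh replicate 8. Its level fell by 3.01 ± 0.85 log2 units in HFD+eRapa against HFD+veh (adjusted p = 0.00998) and differed from ND+veh by -0.20 ± 0.81 (adjusted p = 0.916).

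Gpnmb (chr6:49036546-49070929, plus strand), a glycoprotein of lysosomes and the cell surface that lipid-laden macrophages make, had the largest fall of the 10 genes under rapamycin. It ran from 0 to 10.6 CPM in ND+veh (median 0.899), from 0.413 to 184 CPM in HFD+veh (median 38.3) and from 0.168 to 4.18 CPM in HFD+eRapa (median 1.69). The 0 was in ND+veh replicate 1, where a count of 0 allows up to 0.169 CPM (3 counts). Animals 3 to 6 of HFD+veh lay above every ND+veh and HFD+eRapa animal, while animal 1 of HFD+veh lay below the ND+veh median. Gpnmb was 22.9-fold higher on high-fat than on normal diet (4.52 ± 1.03, edgeR adjusted p = 0.00438) and fell by 4.93 ± 1.01 log2 units in HFD+eRapa against HFD+veh (adjusted p = 0.00136). Without HFD+veh replicate 6 these log2 differences were 3.90 and -4.31, both still called. HFD+eRapa and ND+veh differed by -0.41 ± 0.93 (adjusted p = 0.840).

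Cd68 (chr11:69664213-69666153, minus strand), a glycoprotein of macrophage lysosomes, was at 0.564 to 26.8 CPM in ND+veh (median 4.69), 3.16 to 139 CPM in HFD+veh (median 56.1) and 0.224 to 13.6 CPM in HFD+eRapa (median 4.57). Again animals 3, 4, 5 and 6 of HFD+veh were above every animal of the other groups, and animals 1 and 2 were within the ND+veh range. The difference between HFD+veh and ND+veh was 2.63 ± 0.85 log2 units (6.19-fold, edgeR adjusted p = 0.0275). Without ND+veh replicate 1, 3 or 5 or HFD+veh replicate 3, 4 or 6 it was no longer called (adjusted p up to 0.0790). Under rapamycin Cd68 fell by 3.10 ± 0.83 against HFD+veh (adjusted p = 0.00734), and its difference from ND+veh was -0.47 ± 0.78 (adjusted p = 0.772).

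Cd9 (chr6:125460266-125494791, minus strand), a tetraspanin that marks lipid-associated macrophages but is made by many other cells, did not follow the other 9 genes. Its level was 32.4 to 51.1 CPM in ND+veh (median 41.9), 13.6 to 79.7 CPM in HFD+veh (median 27.9) and 9.38 to 26 CPM in HFD+eRapa (median 11.4). In HFD+veh, 2 animals (4 and 6) were above every ND+veh animal and 4 animals (1, 2, 5 and 7) were below every ND+veh animal. All 9 HFD+eRapa animals were below all 8 ND+veh animals. Cd9 differed between HFD+veh and ND+veh by -0.27 ± 0.31 log2 units (edgeR adjusted p = 0.541), fell by 1.22 ± 0.30 in HFD+eRapa against HFD+veh (adjusted p = 0.00432) and fell by 1.48 ± 0.29 against ND+veh (adjusted p = 0.00114). An annotated transcript on the opposite strand, Gm26728, covers 10.7% of the exonic bases of Cd9 and had at most 3 counts in any library.

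**Figure D2:**
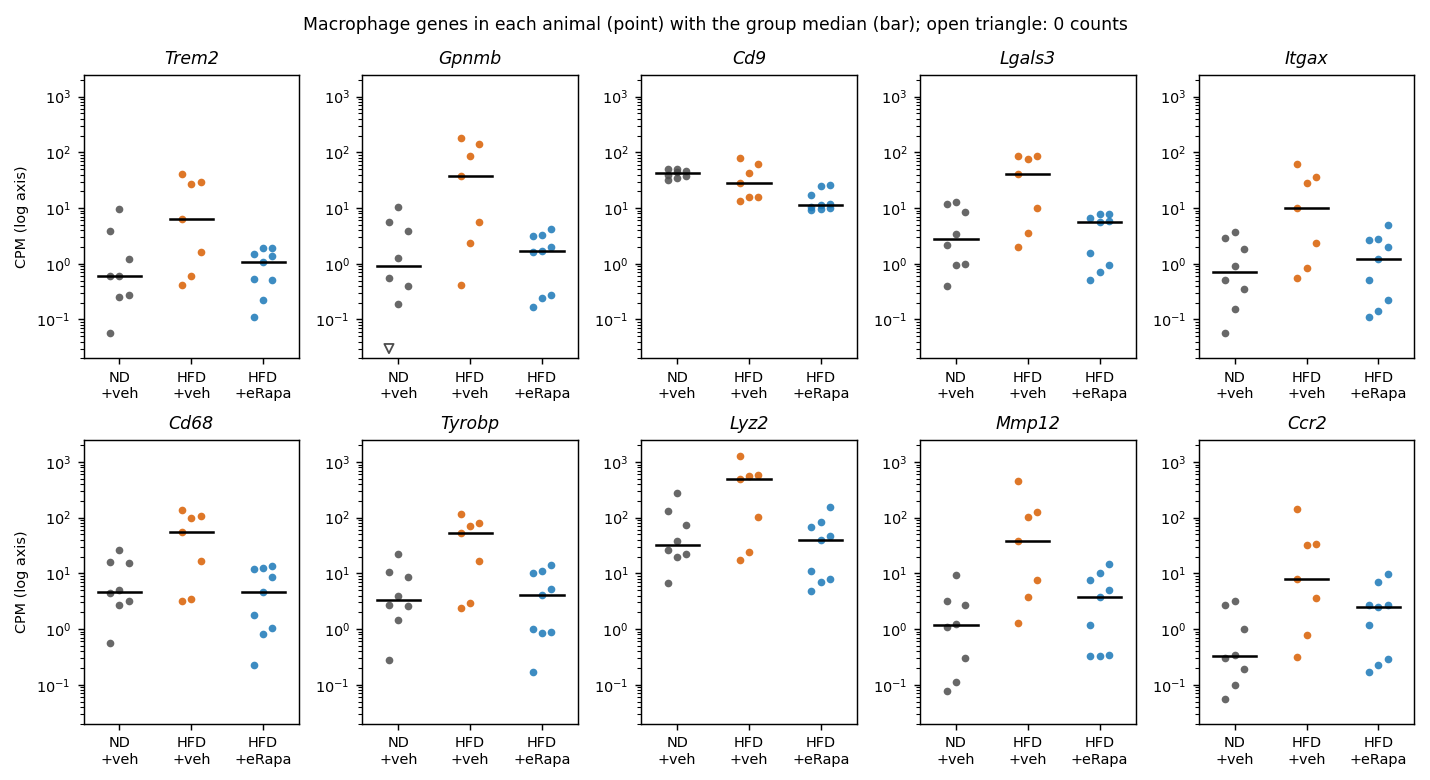
Level of each of the 10 macrophage genes in every animal (points, CPM on a log axis) with the median of each group (bar). Most genes have 4 high HFD+veh animals and 3 in or near the ND+veh range, whereas Cd9 is tight in ND+veh (32.4 to 51.1 CPM) and lower throughout HFD+eRapa (9.38 to 26 CPM); the open triangle is the ND+veh animal with 0 counts of Gpnmb.

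Among the secreted products, Lgals3 (chr14:47367751-47386160, plus strand), which encodes the galectin LGALS3 that binds sugars on cell surfaces and damaged lysosomes, ran from 0.395 to 12.8 CPM in ND+veh (median 2.77), from 2.02 to 87.1 CPM in HFD+veh (median 41.2) and from 0.505 to 7.89 CPM in HFD+eRapa (median 5.69). The 4 high HFD+veh animals (41.2 to 87.1 CPM) were above all ND+veh and HFD+eRapa animals. Lgals3 was 8.14-fold higher on high-fat than on normal diet (3.02 ± 0.81, edgeR adjusted p = 0.0113), and it kept its call without each of the 15 libraries of these groups in turn (adjusted p up to 0.0310). It fell by 3.18 ± 0.78 log2 units in HFD+eRapa against HFD+veh (adjusted p = 0.00451) and differed from ND+veh by -0.16 ± 0.74 (adjusted p = 0.930).

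Lyz2 (chr10:117277331-117282321, minus strand) encodes the lysozyme of macrophages and other myeloid cells. It was at 6.71 to 281 CPM in ND+veh (median 32.4), 17.4 to 1262 CPM in HFD+veh (median 494) and 4.82 to 158 CPM in HFD+eRapa (median 39.2). The groups overlapped, since animals 1, 2 and 7 of HFD+veh were below the highest ND+veh animal. The difference between HFD+veh and ND+veh was 2.43 ± 0.91 log2 units and just missed the threshold (edgeR adjusted p = 0.0512), while DESeq2 called it (adjusted p = 0.0224) and edgeR did so without ND+veh replicate 8 or without HFD+veh replicate 1, 2 or 7 (adjusted p from 0.0152). In HFD+eRapa Lyz2 fell by 2.99 ± 0.89 against HFD+veh (adjusted p = 0.0134), but without HFD+veh replicate 6 the difference was -2.37 and was not called (adjusted p = 0.0550). Against ND+veh the difference was -0.55 ± 0.83 (adjusted p = 0.740). The close paralog Lyz1 reached at most 1.77 CPM, and how reads were split between these near copies is uncertain.

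Mmp12 (chr9:7344381-7369499, plus strand), the macrophage elastase, showed the largest diet difference of the 10. Its level was 0.0771 to 9.45 CPM in ND+veh (median 1.18), 1.28 to 455 CPM in HFD+veh (median 37.5) and 0.333 to 14.7 CPM in HFD+eRapa (median 3.76). Animal 6 of HFD+veh was at 455 CPM, and the next highest, animal 4, was at 128 CPM. Mmp12 was 45.9-fold higher on high-fat than on normal diet (5.52 ± 1.15, edgeR adjusted p = 0.00237), and the log2 fold change was 4.25 without animal 6 and 6.17 without ND+veh replicate 4. In HFD+eRapa it fell by 4.24 ± 1.02 log2 units against HFD+veh (adjusted p = 0.00410), or by 2.95 without animal 6. Its difference from ND+veh was 1.28 ± 0.99 (adjusted p = 0.450).

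Itgax (chr7:128129547-128150657, plus strand) encodes the integrin alpha X chain of dendritic cells and of macrophages in fatty tissue, and Ccr2 (chr9:124101950-124113557, plus strand) the receptor that draws monocytes out of the blood. Itgax ran from 0.0564 to 3.67 CPM in ND+veh (median 0.699), from 0.550 to 61.5 CPM in HFD+veh (median 9.87) and from 0.112 to 4.92 CPM in HFD+eRapa (median 1.24). Animals 3 to 6 of HFD+veh were above all ND+veh animals, and 1 HFD+eRapa animal (number 4) was too. Itgax was 14.6-fold higher on high-fat than on normal diet (3.86 ± 0.96, edgeR adjusted p = 0.00721) and fell by 3.42 ± 0.90 in HFD+eRapa against HFD+veh (adjusted p = 0.00642). Without HFD+veh replicate 6 these log2 differences were 3.17 and -2.72, both still called. HFD+eRapa and ND+veh differed by 0.44 ± 0.87 (adjusted p = 0.811).

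Ccr2 was at 0.0564 to 3.14 CPM in ND+veh (median 0.326), 0.321 to 145 CPM in HFD+veh (median 7.77) and 0.168 to 9.65 CPM in HFD+eRapa (median 2.5). Here 5 of the 7 HFD+veh animals were above every ND+veh animal, the most for any of the 10 genes, and 2 of the 9 HFD+eRapa animals (2 and 4) were as well. Ccr2 was 31.1-fold higher on high-fat than on normal diet (4.96 ± 1.13, edgeR adjusted p = 0.00429), and the log2 fold change was 3.60, still called, without HFD+veh replicate 6. It fell by 3.24 ± 0.98 in HFD+eRapa against HFD+veh (adjusted p = 0.0151), but without HFD+veh replicate 6 the difference was -1.85 and was not called (adjusted p = 0.148). Against ND+veh its difference was 1.72 ± 1.00 (adjusted p = 0.293).

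**Figure D3:**
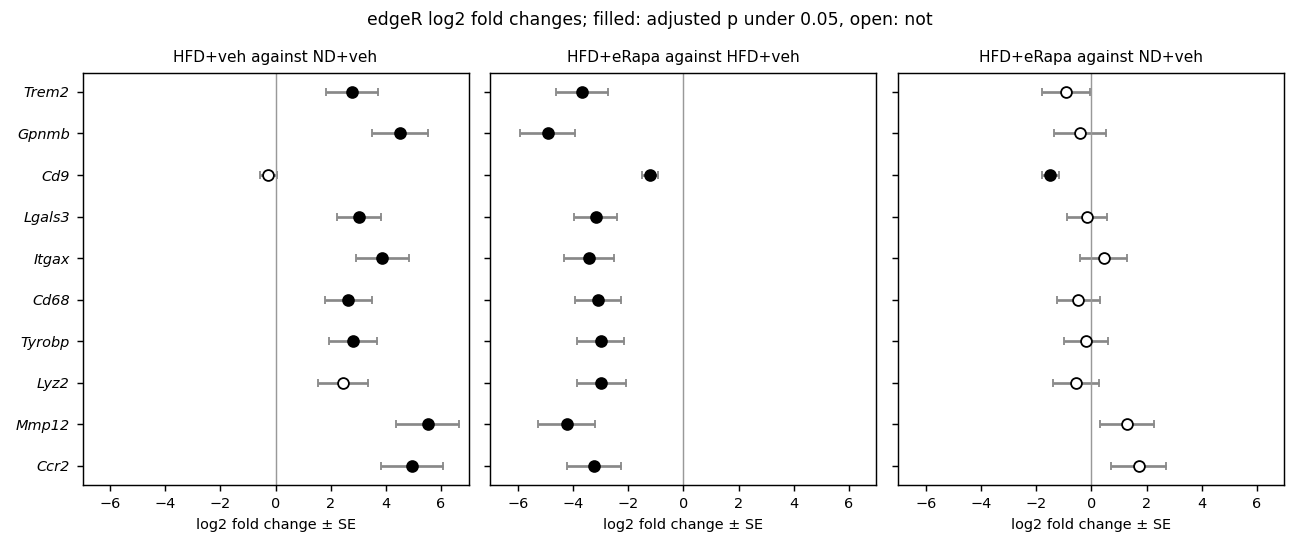
Log2 fold change of each of the 10 macrophage genes with its standard error in the 3 comparisons, from 1 edgeR fit to 24 libraries; filled points have an adjusted p under 0.05. The points of 9 genes lie between 2.43 and 5.52 in HFD+veh against ND+veh and between -4.93 and -2.99 in HFD+eRapa against HFD+veh, and Cd9 alone is called in HFD+eRapa against ND+veh.

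Counted together, 8 of the 10 genes rose in HFD+veh against ND+veh by edgeR and 0 fell (9 higher and 0 lower at an unadjusted p under 0.05, and 9 and 0 by DESeq2), where 16% of all tested genes were called higher and 9.86% lower. Their median log2 fold change was 2.91, beside 0.05 over all tested genes. Under rapamycin, in HFD+eRapa against HFD+veh, all 10 fell by edgeR and by DESeq2, where 21.1% of all genes were called lower and 10.9% higher, with a median of -3.21 beside -0.04. Against ND+veh, 1 gene (Cd9) fell in HFD+eRapa and 0 rose (0 higher at an unadjusted p under 0.05 and 0 by DESeq2), where 6.54% were called lower and 6.93% higher, with a median of -0.31 beside -0.03. Cd9 was also the only 1 of the 10 whose groups did not overlap in any comparison, and 1.67% of all genes were lower without overlap in that comparison. The comparisons share animals, since HFD+veh enters the first and the second and ND+veh the first and the third, so their counts are not independent. The genes within a count are not independent either, since without Cd9 their pairs had correlations of at least 0.887 over the 24 libraries. The 10 genes were also chosen with earlier results of these data known, so the shares of all genes beside them are descriptive. The first count fell to 5 without HFD+veh replicate 3 or without HFD+veh replicate 6 (Gpnmb, Lgals3, Itgax, Mmp12 and Ccr2 both times, where 10.1% and 7.1% of all genes were called higher). The second was 8 to 10 without any 1 library, and 8 without HFD+veh replicate 6, where 14.6% of all genes were called lower. With HFD+veh replicate 6 and ND+veh replicate 4 both left out, an alternative chosen after seeing the data, 5 genes were called in the first comparison (8.55% of all genes higher) and 8 in the second (14.5% lower).

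On a scale that allows genes to be set beside each other, fragments per kilobase per M (FPKM), the order of the levels changed with the diet. In ND+veh the highest median was that of Cd9 (38.0 FPKM), followed by Lyz2 (28.1 FPKM) and Tyrobp (10.1 FPKM). In HFD+veh, Lyz2 (400 FPKM) and Tyrobp (149 FPKM) led, and Cd9 (24.7 FPKM) was the sixth. Under rapamycin the order was Lyz2 (32.5 FPKM), Tyrobp (11.7 FPKM) and Cd9 (9.65 FPKM). Ccr2 had the lowest median FPKM in ND+veh (0.0791) and HFD+veh (2.06), and Itgax in HFD+eRapa (0.397). Neighbours in these orders had overlapping ranges over the animals of a group, except that every HFD+eRapa animal had more FPKM of Cd9 than any had of Lgals3, which came next. Cd9 made up a median of 46.5% of the summed CPM of the 10 genes in ND+veh, 5.10% in HFD+veh and 27.3% in HFD+eRapa.

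Across the 24 libraries 9 of the 10 genes varied together. Without Cd9, the 36 gene pairs had Pearson correlations of log2 CPM of at least 0.887, with a median of 0.95. The 9 pairs with Cd9 lay between 0.293 and 0.553 over all libraries. Within HFD+veh (n = 7) the pairs with Cd9 lay between 0.871 and 0.948, within ND+veh (n = 8) between 0.0826 and 0.457, and within HFD+eRapa (n = 9) between 0.481 and 0.715. These correlations are descriptions over libraries that share depth and cell content. Outside the 10, the genes found among the 3 most alike for more than 1 of them were Clec7a, a receptor for fungal glucans on myeloid cells (r = 0.983 with Itgax and 0.960 with Mmp12, 24 libraries), and Rgs2, a regulator of G protein signalling (r = 0.983 with Itgax and 0.961 with Mmp12).

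The levels were then set against the macrophage markers of the same library. With the mean log2 CPM of the 8 pan-macrophage markers as a covariate in the edgeR fit, 1 gene, Cd9, was called in HFD+veh against ND+veh, and it was lower (-1.05 ± 0.29, adjusted p = 0.0229), where 8.34% of all genes were called in either direction. Between HFD+eRapa and HFD+veh 0 of the 10 were called by edgeR in that fit (5.5% of all genes). In that comparison 2 had an unadjusted p under 0.05, Lyz2 (0.56) and Ccr2 (1.42), both higher in HFD+eRapa. Between HFD+eRapa and ND+veh 3 were called (19.2% of all genes). They were Cd9, lower at -1.40 ± 0.22 (adjusted p = 5.38e-05), Mmp12, higher by 1.61 ± 0.52 (adjusted p = 0.0324), and Ccr2, higher by 2.19 ± 0.44 (adjusted p = 0.00100).

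The pan-leukocyte markers as covariate gave the same gene in the first comparison (Cd9, -1.11 ± 0.27, edgeR adjusted p = 0.00926, 9.23% of all genes called) and the same 3 genes in the third (21.9% of all genes called). In the second it gave 1 call, Ccr2, with a higher value under rapamycin at equal leukocyte markers (1.17 ± 0.31, adjusted p = 0.0181, 7.04% of all genes called). Of the listed markers, Mpeg1 kept 19.7 CPM or more and Lcp1 70.3 CPM or more in every library, while the lowest level of Csf1r was 0.785 CPM, so the markers in a covariate did not vary alike. The covariates come from the same libraries as the genes, and their own levels differed between the groups as given above.

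**Figure D4:**
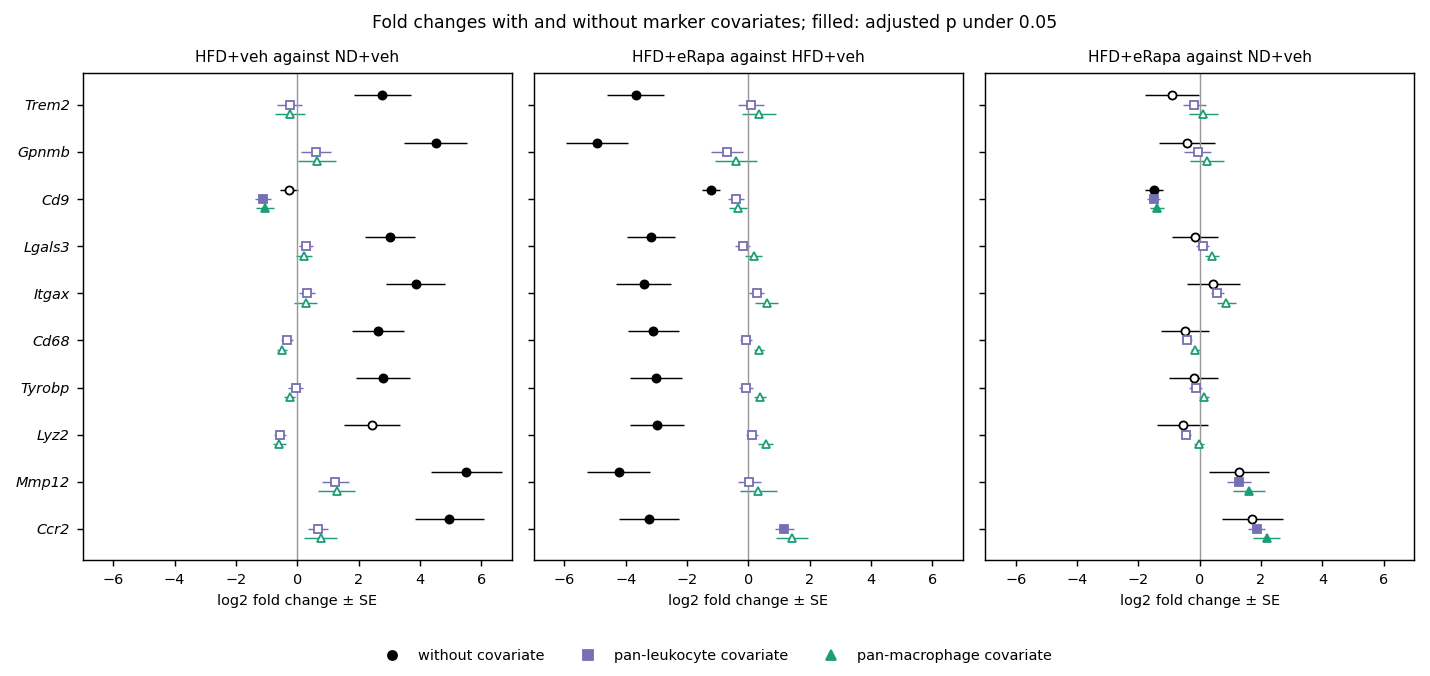
Log2 fold changes with standard errors for the 10 macrophage genes without a covariate and with each of 2 marker covariates, in the 3 comparisons; filled symbols have an adjusted p under 0.05. In HFD+eRapa against HFD+veh the 9 genes other than Cd9 lie between -0.70 (Gpnmb) and 1.42 (Ccr2) with a covariate, and in HFD+eRapa against ND+veh Cd9, Mmp12 and Ccr2 are called with both.

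The levels per read of the macrophage markers are given as plain ratios, with no test. The markers did not fall alike in libraries with a low sum. In HFD+eRapa replicate 6 they summed to 121 CPM, with Mpeg1 at 45.7 CPM and Csf1r at 0.785 CPM. Whether a low sum follows macrophage content was not tested, so ratios from such libraries are uncertain. Per 100 reads of the 8 pan-macrophage markers, the median for Ccr2 was 0.192 in ND+veh, 0.505 in HFD+veh and 0.600 in HFD+eRapa. Mmp12 was at 0.516, 2.19 and 1.19 per 100 reads in the same order, and Gpnmb at 0.447, 2.24 and 0.574. Trem2 was at 0.286, 0.377 and 0.339, and Cd68 at 2.51, 3.28 and 1.91. Of these 5 genes Ccr2 alone had its highest median ratio in HFD+eRapa.

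The other genes of the lipid-associated programme were a list of 20. In HFD+veh against ND+veh 12 of 20 rose (60%, beside 16% of all tested genes) and 0 fell (beside 9.86%), with a median log2 fold change of 1.23. In HFD+eRapa against HFD+veh 16 fell (80%, beside 21.1%) and 1 rose (5%, beside 10.9%), with a median of -1.79. Spp1, the secreted matrix protein osteopontin, rose by 5.31 log2 units with the diet (edgeR adjusted p = 7.89e-05), and Ms4a7, a membrane protein of macrophages, rose by 3.70 (adjusted p = 0.0116). Ctsb, the lysosomal protease cathepsin B, rose by 1.09 (adjusted p = 0.00305) and fell by 1.5 in HFD+eRapa against HFD+veh (adjusted p = 0.000105). Ms4a7 fell by 5.69 in that comparison (adjusted p = 0.000726), and Capg, an actin-capping protein, fell by 3.48 (adjusted p = 0.00587). Plin2, the coat protein of lipid droplets that hepatocytes also make, did not pass the test with the diet (0.18, adjusted p = 0.420) and was the gene that rose, by 0.47, in HFD+eRapa against HFD+veh (adjusted p = 0.0265).

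In the third comparison 2 genes of this list rose and 2 fell, which is 10% each way beside 6.93% and 6.54% of all tested genes, and the median was -0.21. Spp1 was 2.64 log2 units higher than in ND+veh (edgeR adjusted p = 0.00903) and Plin2 higher by 0.66 (adjusted p = 0.00515). Fabp5, a fatty acid binding protein, fell by 2.12 (adjusted p = 0.00393), and the cathepsin gene Ctsl, outside the naming rule, fell by 0.34. Ctsb differed by -0.41 (adjusted p = 0.246). With HFD+veh replicate 6 and ND+veh replicate 4 both left out, 7 of the 20 rose (beside 8.55% of all genes) and 1 fell with the diet (beside 1121 of 13791). In HFD+eRapa against HFD+veh 11 then fell (beside 14.5%) and 1 rose (beside 1354 of 13791). In the third comparison 4 rose (beside 1082 of 13791) and 1 fell (beside 968).

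Of 22 listed genes of TREM2 and TYROBP signalling, 16 were tested. With the diet 14 rose (87.5%, beside 16% of all tested genes) and 0 fell (beside 9.86%, median 2.24). Under rapamycin 15 of 16 fell against HFD+veh (93.8%, beside 21.1%) and 0 rose (beside 10.9%, median -2.80). In HFD+eRapa against ND+veh 1 rose (6.25%, near the 6.93% of all tested genes) and 0 fell (beside 6.54%, median -0.36). Ms4a4a, a membrane protein of macrophages, rose by 5.80 log2 units with the diet (edgeR adjusted p = 0.00259) and Cd300c2, an activating myeloid receptor, by 3.28 (adjusted p = 0.00907). Treml2, a receptor of the TREM family, fell by 4.95 in HFD+eRapa against HFD+veh (adjusted p = 0.00105), and Ms4a4a by 4.54 (adjusted p = 0.00357). Pik3r1, the regulatory subunit of PI3 kinase, is made in hepatocytes too. It rose by 0.73 with the diet (adjusted p = 0.000685), was at -0.02 in HFD+eRapa against HFD+veh (adjusted p = 0.938) and was the gene that rose against ND+veh, by 0.71 (adjusted p = 0.000362). The adaptor Grb2 rose by 0.38 with the diet (adjusted p = 0.0265), fell by 0.45 in HFD+eRapa against HFD+veh (adjusted p = 0.00730) and differed from ND+veh by -0.06 (adjusted p = 0.802). Without the same 2 libraries 4 of the 16 rose with the diet (beside 8.55% of all genes) and 14 fell under rapamycin against HFD+veh (beside 14.5%).

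For the genes of recruited monocytes, 16 of 18 listed were tested. With the diet 12 rose (75%, beside 16% of all tested genes) and 0 fell (beside 9.86%, median 3.58). Under rapamycin 15 fell against HFD+veh (93.8%, beside 21.1%) and 0 rose (beside 10.9%, median -3.11). Between HFD+eRapa and ND+veh edgeR called 0 of the 16 (median -0.05), beside 6.93% of all genes higher and 6.54% lower. In that comparison 1 was higher and 0 lower at an unadjusted p under 0.05, and DESeq2 called 0. Ms4a4c rose by 5.66 log2 units (edgeR adjusted p = 0.00273) and fell by 5.69 (adjusted p = 0.00127) in the first and the second comparison. Ly6c2, a surface marker of inflammatory monocytes, fell by 4.95 under rapamycin (adjusted p = 0.00172). Itgb2, the beta chain that pairs with integrin alpha X, rose by 2.75 (adjusted p = 0.0262) and fell by 3.10 (adjusted p = 0.00856), and Fcgr4, a receptor for antibodies, rose by 3.49 (adjusted p = 0.0135) and fell by 3.55 (adjusted p = 0.00642). Against ND+veh, Itgb2 in HFD+eRapa was at -0.35 (adjusted p = 0.841) and Fcgr4 at -0.06 (adjusted p = 0.983). Without the same 2 libraries 9 of the 16 rose with the diet (beside 8.55% of all genes) and 10 fell under rapamycin against HFD+veh (beside 14.5%).

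Relatives of Mmp12, Lgals3 and Cd9 were also listed. Of 15 listed genes 13 were tested, and 4 rose (30.8%, beside 16% of all tested genes) and 0 fell in HFD+veh against ND+veh (median 0.36). Against HFD+veh, 1 rose (7.69%, beside 10.9%) and 3 fell (23.1%, beside 21.1%) in HFD+eRapa (median -0.24), and against ND+veh 1 rose (7.69%, beside 6.93%) and 2 fell (15.4%, beside 6.54%, median 0.15). Shares of this size in the second comparison are near those of all genes. Without the same 2 libraries 3 rose with the diet (beside 8.55% of all genes). Against HFD+veh 1 then rose (beside 1354 of 13791) and 2 fell (beside 14.5%). Against ND+veh 2 rose (beside 1082 of 13791) and 2 fell (beside 968). The collagenase Mmp13 rose by 5.08 log2 units (edgeR adjusted p = 0.00616) and fell by 5.09 (adjusted p = 0.00313) in the first and the second comparison, and the galectin gene Lgals1 rose by 1.24 with the diet (adjusted p = 0.0167). The gelatinase Mmp2 fell by 4.16 in HFD+eRapa against HFD+veh (adjusted p = 0.000199) and by 3.07 against ND+veh (adjusted p = 0.00281), and Mmp14, a membrane-bound protease, fell by 0.63 against ND+veh (adjusted p = 0.0155). Lgals9, another galectin gene, rose by 0.42 with the diet (adjusted p = 0.0137) and was at -0.24 (adjusted p = 0.116) and 0.18 (adjusted p = 0.314) in the other comparisons. The tetraspanin Cd81 was at 0.10 (adjusted p = 0.369), 0.02 (adjusted p = 0.862) and 0.12 (adjusted p = 0.336) in the 3 comparisons. The remaining calls, named after their values were seen, were Mmp19 (0.36) in the first comparison, Timp2 (-2.0) and Tspan4 (0.52) in the second and Lgals8 (0.36) in the third. Markers of stellate cells, fibroblast-like liver cells that make Mmp2, summed to 30.0 to 225 CPM in ND+veh, 29.8 to 445 CPM in HFD+veh and 19.9 to 84.0 CPM in HFD+eRapa, and their part in the Mmp2 values was not tested.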

How the data were processed

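RNA of 24 hepatocyte preparations was sequenced, and the labels gave each library its group, its replicate number and 1 common batch. The authors aligned reads to mm10 with STAR, filtered them with SAMtools 1.1.0, counted them with HTSeq 0.11.2 and tested them with DESeq2; the deposited counts are raw whole numbers, and whether counting used strand is not given in the sources used here. The deposited FPKM values were made by the authors with Cufflinks. All sample columns were matched to a label. CPM is counts per M total counts, M being 1000000, and log2 CPM used a prior count of 2.

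Counts were tested with edgeR 4.0.16 in R 4.3.3 (filterByExpr, TMM, estimateDisp, robust glmQLFit, glmQLFTest), with all 24 libraries and 3 groups in 1 fit. Benjamini-Hochberg adjustment ran over 13847 genes, and called means an adjusted p under 0.05. SE is the absolute log2 fold change over the square root of F. The code was tested on simulated data. P-values measure the spread between these animals. Depth was 17.7 to 25.9 M counts per library, and floors (3 counts) cover counting error only.

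The members and gene lists were chosen with earlier results of these data known. All 10 members are named. From each companion list and comparison, the 2 called genes with the largest change and the 2 with the highest mean CPM are named, and for likeness the genes among the 3 highest correlations of 2 or more members, predicted genes skipped. Some genes that this rule or the marker lists include are not reported here. Alternatives were DESeq2 1.42.0, its size factors, other filters, limma 3.58.1 on log2 FPKM, only the groups compared, the replicate number as a block, marker covariates and each library left out. Positions are of GRCm38, and promoters are from RefSeq.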

Additional observations from a re-analysis of the deposited data

Results flagged for a closer look

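Of 42 sets of values (the 10 macrophage genes and 4 marker sums in each of 3 groups), 1 held a library far from the others of its group, and about 2.1 are expected by chance. It was the log2 summed CPM of the hepatocyte markers in ND+veh replicate 4, which was 16.2, below the nearest ND+veh library at 16.8 and the highest at 17.2. None of the 30 sets of values of the macrophage genes themselves held such a library. The same ND+veh animal had the highest Gpnmb, Mmp12 and Ccr2 of its group, at 10.6, 9.45 and 3.14 CPM.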

How the results depend on the processing

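Of 110 values of the 10 macrophage genes over 11 alternatives in each comparison, 76 kept direction and call in HFD+veh against ND+veh, 76 in HFD+eRapa against HFD+veh and 93 in HFD+eRapa against ND+veh. The count of called genes in HFD+veh against ND+veh was 8, and was 5 without a filter on low counts, 5 with limma on log2(FPKM + 0.1), 5 with HFD+veh replicate 6 and ND+veh replicate 4 both left out, 1 with each marker covariate, and 5 (HFD+veh replicate 3 or 6) to 9 without any 1 library. Calls over all genes fell too, from 16% higher to 1899 of 30483 without the filter and 1158 of 13847 with that limma fit. They were 8.55% without both libraries, and 10.1% and 7.1% without HFD+veh replicate 3 or 6. With the pan-macrophage and pan-leukocyte covariates, 8.34% and 9.23% were called in either direction. In HFD+eRapa against HFD+veh the count of called macrophage genes was 10, and was 8 to 10 without any 1 library. It was 1 with the pan-leukocyte covariate (7.04% of all genes called). With the pan-macrophage covariate it was 0 (5.5% of all genes called), and 2 at an unadjusted p under 0.05, both higher in HFD+eRapa. With the replicate number as a block, edgeR called 0 (0 at an unadjusted p under 0.05) in that comparison, 9 in the first and 1 in the third, while DESeq2 without a block called 10, 9 and 1. The block fit held only the 2 groups compared and the replicate numbers found in both. It left out HFD+eRapa replicates 8 and 9 in the second comparison, ND+veh replicate 8 in the first and HFD+eRapa replicate 9 in the third. Its counts therefore differ from those of the main fit by more than the block. Over all tested genes the block fit called 305 of 13161 in HFD+eRapa against HFD+veh, beside 4432 of 13847 in the main fit of 24 libraries. It called 3398 of 13258 in the first and 1882 of 12861 in the third. Whether equal replicate numbers mark paired animals is not given in the labels. The deviations from the group mean of animals with equal numbers correlated by -0.360 to 0.726, -0.659 to 0.495 and -0.518 to 0.367 in the 3 comparisons. Of these pairs 5 of 7, 2 of 7 and 2 of 8 were over 0.1. Such correlations cannot decide the pairing, because leukocyte markers differed widely between animals of a group. In HFD+eRapa against ND+veh the count was 1, and 1 without any 1 library. It was 3 with each covariate, where 21.9% (pan-leukocyte) and 19.2% (pan-macrophage) of all genes were called.

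Signs changed as follows, as log2 fold changes. With the pan-leukocyte covariate the first comparison gave Trem2 -0.25, Cd68 -0.35, Tyrobp -0.053 and Lyz2 -0.56, the second Trem2 0.074, Itgax 0.27, Lyz2 0.13, Mmp12 0.023 and Ccr2 1.17, and the third Lgals3 0.10. With the pan-macrophage covariate the first gave Trem2 -0.24, Cd68 -0.49, Tyrobp -0.25 and Lyz2 -0.58, the second Trem2 0.35, Lgals3 0.17, Itgax 0.59, Cd68 0.35, Tyrobp 0.38, Lyz2 0.56, Mmp12 0.32 and Ccr2 1.42, and the third Trem2 0.11, Gpnmb 0.24, Lgals3 0.39 and Tyrobp 0.13. The other changes of sign were in the third comparison, where no gene but Cd9 was called. The replicate block gave Trem2 0.35, Gpnmb 0.27, Lgals3 0.32 and Tyrobp 0.043, limma gave Lgals3 0.025 (log2(FPKM + 1)) and 0.076 (log2(FPKM + 0.1)), and leaving out both libraries gave Gpnmb 0.20 and Lgals3 0.072. Without any 1 library Trem2 ran from -1.12 to 0.25, Gpnmb from -0.66 to 0.17, Lgals3 from -0.33 to 0.24, Cd68 from -0.71 to 0.032, Tyrobp from -0.60 to 0.45 and Lyz2 from -1.13 to 0.21. The covariates remove what the genes share with the markers of the same library by construction, and the cause of the other changes was not tested. The lowest values of Trem2, Gpnmb, Itgax, Tyrobp, Mmp12 and Ccr2 rest on 3 counts or fewer and are not precise.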

Other observations

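Markers of cells other than macrophages were present in these hepatocyte preparations too. Dendritic cell markers summed to 4.34 to 12.4 CPM in ND+veh, 4.17 to 67.1 CPM in HFD+veh and 3.28 to 8.96 CPM in HFD+eRapa. B cell markers summed to 0.338 to 4.45 CPM, 0.367 to 54.2 CPM and 0.238 to 5.78 CPM, and T and NK cell markers to 0.405 to 7.66 CPM, 0.321 to 45.1 CPM and 0.864 to 3.77 CPM, in the same order of groups. Sinusoidal endothelial markers, from the lining cells of the liver's capillaries, had medians of 167, 366 and 118 CPM. All 7 of these endothelial genes that were tested fell in HFD+eRapa against HFD+veh by edgeR (beside 21.1% of all tested genes), and 1 rose in HFD+veh against ND+veh (14.3%, beside 16%). With the diet their median log2 fold change was 1.16, with 4 higher at an unadjusted p under 0.05 and 3 by DESeq2. With HFD+veh replicate 6 and ND+veh replicate 4 left out, 2 fell (beside 14.5% of all genes) and 0 rose (beside 8.55%) in these comparisons. The 7 tested stellate cell genes also fell in HFD+eRapa against HFD+veh (beside 21.1% of all tested genes), and 4 of them fell against ND+veh (beside 6.54%). These counts were 7 and 4 without the same 2 libraries (beside 14.5% and 968 of 13791). Of the 7 Kupffer cell genes, 1 (Cd5l, a secreted scavenger receptor) rose with the diet (14.3%, beside 16% of all tested genes). Their median log2 fold change was 1.92, beside 0.05 over all tested genes, with 5 higher at an unadjusted p under 0.05 and 2 by DESeq2. In HFD+eRapa against HFD+veh 4 fell (57.1%, beside 21.1%). The median was then -2.41, beside -0.04, with 7 lower at an unadjusted p under 0.05 and 6 by DESeq2. Without the same 2 libraries 0 rose (beside 8.55%) and 1 fell (beside 14.5%).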
